A study of Mus musculus with 23 samples.

Results

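The genes described here are the enzymes of cholesterol synthesis and the lipid genes controlled by sterol regulatory element-binding proteins (SREBPs), together with their liver X receptor (LXR) counterparts, in mouse TC2Ras tumour tissue. The members were 33 named genes, found by matching their symbols to the Ensembl identifiers of the deposited count table, and all 33 were present among its 55401 gene rows. All 33 were abundant enough to be tested, among 24440 genes tested in all. They were split by role into 18 enzymes of sterol synthesis, 5 genes of SREBP control, 3 genes of sterol uptake and transport, 4 genes of fatty acid synthesis and 3 LXR-driven genes.

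Cells make cholesterol from acetyl-CoA through the mevalonate and lanosterol pathways. When sterols run low in the endoplasmic reticulum, the escort protein SCAP releases its retention partners INSIG1 and INSIG2 and carries SREBP to the Golgi, where proteases free a transcription factor that switches on the genes of sterol synthesis and uptake and, mainly through SREBP1, of fatty acid synthesis. When sterols are plentiful, oxidised sterols activate LXR instead, which drives the efflux transporters ABCA1 and ABCG1 and the ubiquitin ligase MYLIP, and also transcription of Srebf1. Prostate tumours are known for high SREBP activity, and cholesterol is the precursor from which androgens are made.

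The samples were flank tumours in male C57/BL6 mice 8 to 10 weeks of age, grown from TC2Ras, the TRAMP-C2 mouse prostate adenocarcinoma line carrying a lentivirus for activated H-ras with the allele G12V. The mice received 10 µg of plasmid per tibialis anterior muscle by sonoporation, either the empty control vector pTSTA-ctrl (EV) or pTSTA-IL27pepL (IL27v), which makes the cytokine IL-27 joined to a short targeting peptide. Tumour tissue of each vector was then exposed ex vivo to media, cabozantinib (an inhibitor of MET, VEGF receptors and other receptor tyrosine kinases), docetaxel (a microtubule drug), anti-PD-L1 (a checkpoint antibody), IL-27, or cabozantinib plus IL-27. Each of the 12 groups had 2 libraries, except IL27v tumours with ex vivo IL-27, which had 1, giving 23 poly(A) libraries. The labels give no dose or time for the ex vivo exposure and do not say whether libraries of 1 group came from different animals. The p-values therefore describe the scatter of these libraries, which may be technical only.

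Library totals ran from 47641781 to 83088346 counts, so that 1 CPM (the usual unit of level, counts scaled to a common library size) stood for 36.3 to 86.5 counts, and the smallest count of any member in any library was 58. The labelled tissue was checked against Pbsn, the prostate secretory gene that gives the TRAMP model its promoter, which was at 0 in all 23 libraries. A pattern of muscle transcripts and of the single neutrophil transcript Ngp cut across the groups. Set A, with little muscle RNA and no neutrophil granule transcript Ngp above 5 CPM, held EV tumours other than the 3 libraries of set B and 1 of the IL27v docetaxel libraries. Set B, with Ngp above that level, held both EV libraries with cabozantinib plus IL-27, 1 EV anti-PD-L1 library and both IL27v media libraries. Its muscle transcripts were also high, at 458 to 674 CPM in sum. Set C, with muscle transcripts above 100 CPM in sum and no Ngp, held the rest of the IL27v libraries. The sum of all listed neutrophil markers did not follow Ngp. It was 38.8 to 53.5 CPM in set B and 222 and 240 CPM in the IL27v docetaxel libraries, where Ngp was 0. In the remaining libraries it was at most 4.89 CPM. In IL27v tumours the media libraries (set B) and the cabozantinib libraries (set C) therefore differ in set as well as in treatment, and the set and the drug cannot be told apart there. In EV tumours the libraries with cabozantinib plus IL-27 (set B) differ in set from the media and cabozantinib libraries (set A). Set and treatment cannot be told apart in those 2 EV comparisons either. IL27v docetaxel 1 also had 27.2% of its counts in ribosomal RNA genes, against at most 3.02% elsewhere.

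The promoter windows of 8 members are printed here because in 1 vector all 4 of their cabozantinib-containing libraries were above every other library, as given below. They are 8 of the 25 members that have a window; Stard4 met the same rule and has none. Sequences come from RefSeq on GRCm38.p6 and are printed 5′ to 3′, from 250 bases before the annotated start to the start, while the counts of motifs given after them come from windows that also hold the 50 bases after the start. Capitals mark 3 motifs on either strand: the sterol regulatory element TCACNCCAC, to which SREBP binds, the CCAAT box of NF-Y (read ATTGG on the other strand), and the GC box GGGCGG of SP1 (CCGCCC on the other strand). NF-Y and SP1 are the usual partners of SREBP at sterol genes. The windows are Acat2 at chr17:12960726-12960975 on the minus strand, Hmgcs1 at chr13:119690101-119690350 on the plus strand, Idi1 at chr13:8885356-8885605 on the plus strand, Cyp51 at chr5:4104698-4104947 on the minus strand, Tm7sf2 at chr19:6067851-6068100 on the minus strand, Msmo1 at chr8:64733579-64733828 on the minus strand, Nsdhl at chrX:72918271-72918520 on the plus strand and Insig1 at chr5:28071162-28071411 on the plus strand.
Acat2: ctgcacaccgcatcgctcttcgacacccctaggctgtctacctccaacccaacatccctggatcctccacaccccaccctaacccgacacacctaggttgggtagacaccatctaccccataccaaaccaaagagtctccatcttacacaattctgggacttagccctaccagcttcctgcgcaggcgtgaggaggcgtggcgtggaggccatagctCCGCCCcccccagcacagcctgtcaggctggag
Hmgcs1: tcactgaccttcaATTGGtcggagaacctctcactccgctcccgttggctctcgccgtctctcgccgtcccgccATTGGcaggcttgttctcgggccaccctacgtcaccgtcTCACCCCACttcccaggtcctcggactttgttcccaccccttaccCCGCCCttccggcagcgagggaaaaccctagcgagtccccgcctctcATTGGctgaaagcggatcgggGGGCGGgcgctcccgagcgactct
Idi1: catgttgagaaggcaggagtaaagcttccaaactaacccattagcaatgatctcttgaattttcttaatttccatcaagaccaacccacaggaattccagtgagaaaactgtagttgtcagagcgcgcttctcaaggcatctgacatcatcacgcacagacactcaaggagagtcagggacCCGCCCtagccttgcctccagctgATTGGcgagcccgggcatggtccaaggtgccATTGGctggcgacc
Cyp51: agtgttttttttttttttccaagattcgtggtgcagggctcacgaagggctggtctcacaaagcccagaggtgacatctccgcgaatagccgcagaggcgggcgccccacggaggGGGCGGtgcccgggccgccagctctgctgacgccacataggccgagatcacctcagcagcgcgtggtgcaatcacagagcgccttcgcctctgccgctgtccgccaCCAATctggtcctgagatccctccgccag
Tm7sf2: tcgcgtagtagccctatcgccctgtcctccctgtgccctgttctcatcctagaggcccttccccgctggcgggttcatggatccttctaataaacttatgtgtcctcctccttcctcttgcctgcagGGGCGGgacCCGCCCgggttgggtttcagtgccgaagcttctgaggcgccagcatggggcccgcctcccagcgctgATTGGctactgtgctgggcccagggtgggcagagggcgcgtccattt
Msmo1: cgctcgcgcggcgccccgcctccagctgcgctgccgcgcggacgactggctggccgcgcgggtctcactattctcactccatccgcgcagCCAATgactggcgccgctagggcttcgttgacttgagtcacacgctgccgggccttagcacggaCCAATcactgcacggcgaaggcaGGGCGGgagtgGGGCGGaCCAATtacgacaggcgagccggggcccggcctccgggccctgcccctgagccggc
Nsdhl: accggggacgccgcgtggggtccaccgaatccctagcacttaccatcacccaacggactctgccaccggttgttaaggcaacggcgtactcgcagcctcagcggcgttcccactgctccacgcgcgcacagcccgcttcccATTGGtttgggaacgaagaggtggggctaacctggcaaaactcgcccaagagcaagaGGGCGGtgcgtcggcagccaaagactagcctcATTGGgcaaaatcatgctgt
Insig1: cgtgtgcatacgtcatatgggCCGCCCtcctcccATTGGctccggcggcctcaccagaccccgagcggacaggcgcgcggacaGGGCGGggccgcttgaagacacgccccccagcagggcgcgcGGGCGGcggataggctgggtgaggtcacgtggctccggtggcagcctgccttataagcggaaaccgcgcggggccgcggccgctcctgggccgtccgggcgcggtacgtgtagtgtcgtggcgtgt

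The sterol regulatory element as spelled was found in 1 of the 33 windows of these 25 members (3.03%), that of Hmgcs1, where it begins 137 bases before the start, and in 1.24% of all 32851 promoter windows. The CCAAT box was found in 22 of the 33 member windows (66.7%) and in 37.4% of all windows, and the GC box in 26 of the 33 (78.8%) and in 35.7% of all windows. The members with no CCAAT box in any window were Acat2, Scap, Abca1 and Acaca, and the printed Acat2 window holds a single GC box. The LXR element, which is the half-site GGTCA repeated in the same direction after 5 unspecified bases, was found in none of the member windows and in 0.0761% of all windows. No motif overlapped another in the printed windows. A match is a description of the letters and not of binding.

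The enzymes of sterol synthesis were higher with cabozantinib than in media, with and without IL-27, but by amounts that did not pass the test in any member when both vectors were averaged. With cabozantinib alone, all 18 sterol synthesis genes had positive log2 differences from media averaged over both vectors, with a median of 0.61 (range 0.14 to 2.06), against a median of 0.00 over all genes tested. With cabozantinib plus IL-27 all 18 were again positive, with a median of 0.73. Both comparisons use the same 4 media libraries. Without and with IL-27, genes of SREBP control had medians of 0.70 and 0.79 and uptake and transport genes 0.36 and 0.30. Fatty acid synthesis genes had medians of 0.07 and 0.27, and the 3 LXR-driven genes -0.54 and -0.60.

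In edgeR's quasi-likelihood test, no member was called at an adjusted p of 0.05 in either average; 0% of all genes were called with cabozantinib and 0.00409% with cabozantinib plus IL-27. At an unadjusted p under 0.05, 15 of 33 members were higher and 0 lower with cabozantinib, where 7.69% of all genes were higher. With cabozantinib plus IL-27, 17 were higher and 1 lower (Npc1), where 3.05% of all genes were higher and 1.42% lower. DESeq2, run as an alternative, called 5 members higher with cabozantinib (Acat2, Mvk, Mvd, Tm7sf2 and Srebf1), where it called 1.04% of all genes higher, and 2 with cabozantinib plus IL-27 (Acat2 and Nsdhl), where it called 0.16%. In bulk tissue, fewer cells of a type and less RNA per cell cannot be told apart.

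Each library's level of the sterol synthesis genes was summarised as the median over the 18 genes of log2 CPM minus that gene's mean over the 23 libraries. In EV tumours this was -0.11 and -0.33 in media, 0.59 and 0.11 with cabozantinib, 0.49 and 0.41 with cabozantinib plus IL-27, -0.05 and -0.22 with docetaxel, -0.08 and -0.72 with anti-PD-L1 and 0.15 and -0.43 with IL-27. In IL27v tumours it was -0.14 and -0.61 in media, 0.63 and 0.53 with cabozantinib, 0.75 and 0.27 with cabozantinib plus IL-27, 0.15 and 0.65 with docetaxel, -0.47 and -0.35 with anti-PD-L1 and -0.70 with IL-27. All 8 cabozantinib-containing libraries were above 0, and 12 of the other 15 were below it. The groups overlapped in both vectors: EV cabozantinib 2 lay below EV IL-27 1, and IL27v docetaxel 2 lay above 3 of the 4 cabozantinib-containing IL27v libraries. The LXR-driven genes showed no such ordering: their median ran from -0.74 to 0.25 in the cabozantinib-containing libraries and from -0.96 to 1.45 in the others.

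**Figure D1:**
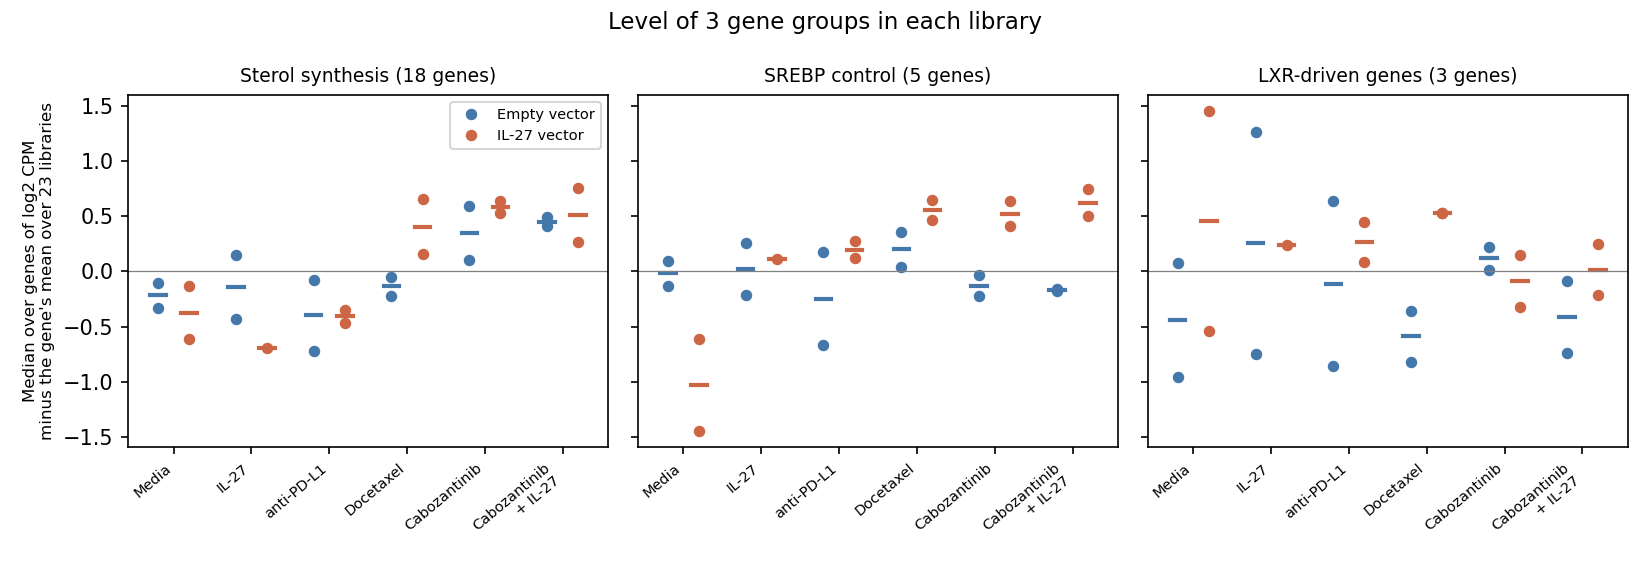
Median over genes of log2 CPM minus the gene's mean over the 23 libraries, for 18 sterol synthesis genes, 5 genes of SREBP control and 3 LXR-driven genes, by ex vivo condition (EV in blue, IL27v in orange, 1 point per library). The sterol synthesis medians of the 8 cabozantinib-containing libraries lie between 0.11 and 0.75, above all 4 media libraries.

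Acat2, the cytosolic thiolase that makes acetoacetyl-CoA at the head of the pathway, had the smallest p of the sterol synthesis genes in both averages. In EV tumours, Acat2 was at 60.4 and 45.7 CPM in media, 114 and 74.8 with cabozantinib, 120.3 and 104 with cabozantinib plus IL-27, 57.3 and 57.4 with docetaxel, 62.2 and 33.6 with anti-PD-L1 and 87.5 and 48.0 with IL-27. In IL27v tumours, Acat2 was at 54.9 and 45.7 CPM in media, 123 and 130.4 with cabozantinib, 138 and 97.6 with cabozantinib plus IL-27, 63.1 and 96.8 with docetaxel, 39.7 and 53.5 with anti-PD-L1 and 40.4 with IL-27. In EV tumours 3 of the 4 cabozantinib-containing libraries were above all 8 others, and the fourth, cabozantinib 2, was below IL-27 1. In IL27v tumours all 4 were above the 7 others. The log2 difference from media, averaged over both vectors, was 1.08 ± 0.26 (SE) with cabozantinib and 1.15 ± 0.26 with cabozantinib plus IL-27, with edgeR adjusted p of 0.30 and 0.79. Acat2 lies beside a close copy, Acat3, and how the counting divided reads between them is not stated in the labels or the table.

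The next enzymes act on HMG-CoA and mevalonate. Hmgcs1, HMG-CoA synthase, is described here because of its separation in EV tumours, a choice made after its values were seen. In EV tumours, Hmgcs1 was at 104 and 108 CPM in media, 147 and 138 with cabozantinib, 164 and 163 with cabozantinib plus IL-27, 116 and 50.6 with docetaxel, 108 and 51.4 with anti-PD-L1 and 26.5 and 88.3 with IL-27. In IL27v tumours, Hmgcs1 was at 109 and 57.9 CPM in media, 148 and 80.8 with cabozantinib, 148 and 111 with cabozantinib plus IL-27, 206 and 182 with docetaxel, 67.4 and 90.7 with anti-PD-L1 and 57.4 with IL-27. The 4 cabozantinib-containing EV libraries were above the 8 others, while in IL27v tumours both docetaxel libraries were the highest. Against media, the log2 difference averaged over vectors was 0.44 ± 0.36 and 0.63 ± 0.36 without and with IL-27, both with intervals that include 0.

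Mvk, mevalonate kinase, and Mvd, mevalonate diphosphate decarboxylase, had the widest differences of the sterol genes, and these came from IL27v tumours. In EV tumours, Mvk was at 5.22 and 7.32 CPM in media, 15.2 and 4.68 with cabozantinib, 7.89 and 6.72 with cabozantinib plus IL-27, 11.4 and 20.4 with docetaxel, 9.70 and 3.05 with anti-PD-L1 and 23.1 and 6.65 with IL-27. In IL27v tumours, Mvk was at 1.26 and 4.21 CPM in media, 24.4 and 35.3 with cabozantinib, 23.7 and 18.2 with cabozantinib plus IL-27, 21.2 and 25.3 with docetaxel, 11.2 and 11.5 with anti-PD-L1 and 9.86 with IL-27. Every treated IL27v library was above both IL27v media libraries, whichever agent it received, and the EV media and cabozantinib libraries overlapped. Cabozantinib against media in IL27v tumours gave a log2 difference of 3.45 ± 0.74 for Mvk with an edgeR adjusted p of 0.028, so that Mvk rose, and 3.05 ± 0.78 for Mvd with an adjusted p of 0.056. In EV tumours the same differences were 0.67 ± 0.67 and 0.75 ± 0.73. Mvd ran from 2.29 to 13.0 CPM in IL27v media and from 39.6 to 76.8 CPM in the 4 cabozantinib-containing IL27v libraries, and was 66.4 and 14.9 CPM with IL-27 in EV tumours. Both genes are rich in G and C, at 58.5% and 59.2% of exon bases, which bears on these values as given below with the GC trend.

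Pmvk, phosphomevalonate kinase, had log2 differences of 1.25 ± 0.39 with cabozantinib and 1.02 ± 0.39 with cabozantinib plus IL-27, averaged over vectors. Idi1, isopentenyl diphosphate isomerase, had 0.47 ± 0.34 and 0.62 ± 0.34, and Fdps, farnesyl diphosphate synthase, 1.21 ± 0.41 and 1.09 ± 0.41. Idi1 separated in EV tumours, at 117 to 146 CPM in the 4 cabozantinib-containing libraries and 25.3 to 97.3 CPM in the 8 others, and overlapped in IL27v tumours, at 77.9 to 144 and 38.0 to 132 CPM. Fdps was at 543 and 111 CPM in the EV IL-27 libraries, and the first of these was the highest of all 23, while the same library was the lowest of all for Hmgcs1 and Idi1.

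Past farnesyl diphosphate the pathway is committed to sterols. Fdft1, squalene synthase, had log2 differences from media of 0.57 ± 0.24 and 0.62 ± 0.24 without and with IL-27, and Sqle, squalene epoxidase, 0.47 ± 0.23 and 0.51 ± 0.23. Lss, which closes the ring to give lanosterol, had 0.64 ± 0.23 and 0.79 ± 0.23. In EV tumours, Lss was at 59.7 and 60.4 CPM in media, 65.3 and 86.3 with cabozantinib, 108 and 94.1 with cabozantinib plus IL-27, 67.7 and 50.3 with docetaxel, 80.6 and 42.6 with anti-PD-L1 and 72.8 and 52.7 with IL-27. In IL27v tumours, Lss was at 64.4 and 59.3 CPM in media, 125 and 114 with cabozantinib, 131 and 89.4 with cabozantinib plus IL-27, 80.4 and 110.4 with docetaxel, 55.3 and 60.5 with anti-PD-L1 and 42.2 with IL-27. In both vectors the 2 cabozantinib-containing groups had the highest mean Lss of the 6 conditions, with single libraries overlapping other groups.

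The later enzymes turn lanosterol into cholesterol. Cyp51, lanosterol demethylase, was also described after its values were seen. In EV tumours, Cyp51 was at 97.6 and 90.3 CPM in media, 168 and 125 with cabozantinib, 169.8 and 152 with cabozantinib plus IL-27, 112 and 72.0 with docetaxel, 106 and 71.9 with anti-PD-L1 and 63.7 and 85.3 with IL-27. In IL27v tumours, Cyp51 was at 128 and 77.5 CPM in media, 175 and 149 with cabozantinib, 190.3 and 144 with cabozantinib plus IL-27, 129 and 176 with docetaxel, 79.8 and 97.3 with anti-PD-L1 and 59.2 with IL-27. In EV tumours the 4 cabozantinib-containing libraries were above the 8 others, and in IL27v tumours their range of 144 to 190.3 CPM overlapped the 59.2 to 176 CPM of the others. Its log2 difference from media was 0.65 ± 0.23 with cabozantinib and 0.74 ± 0.23 with cabozantinib plus IL-27.

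Nsdhl, the sterol dehydrogenase of C4 demethylation, was the late enzyme whose libraries separated in IL27v tumours. In EV tumours, Nsdhl was at 39.9 and 37.7 CPM in media, 50.4 and 48.8 with cabozantinib, 68.2 and 69.0 with cabozantinib plus IL-27, 48.1 and 43.5 with docetaxel, 42.3 and 35.5 with anti-PD-L1 and 56.7 and 37.1 with IL-27. In IL27v tumours, Nsdhl was at 51.5 and 41.3 CPM in media, 72.4 and 72.2 with cabozantinib, 81.2 and 62.6 with cabozantinib plus IL-27, 41.2 and 54.9 with docetaxel, 30.9 and 34.1 with anti-PD-L1 and 34.2 with IL-27. The 4 cabozantinib-containing IL27v libraries were above the 7 others. In EV tumours both libraries with cabozantinib plus IL-27 were the highest, and both with cabozantinib alone were below IL-27 1. The log2 difference was 0.50 ± 0.19 with cabozantinib and 0.73 ± 0.19 with cabozantinib plus IL-27, with edgeR adjusted p of 0.43 and 0.88.

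Dhcr7, the reductase of the last step, had a log2 difference from media of 0.46 ± 0.24 with cabozantinib and 0.84 ± 0.24 with cabozantinib plus IL-27. In IL27v tumours, Dhcr7 was at 9.57 and 8.17 CPM in media, 18.3 and 16.4 with cabozantinib, 24.7 and 16.4 with cabozantinib plus IL-27, 16.6 and 20.8 with docetaxel, 8.53 and 8.37 with anti-PD-L1 and 9.23 with IL-27. Its EV levels spanned less, at 10.8 to 17.1 CPM in the cabozantinib-containing libraries and 7.82 to 14.0 CPM in the others. Tm7sf2, another sterol reductase of the part after lanosterol, had larger differences of 1.74 ± 0.42 and 1.30 ± 0.42 at a low level, with 0.862 to 8.11 CPM over all libraries. In EV tumours it was at 3.52 to 5.61 CPM with cabozantinib and 1.18 to 3.41 CPM without it, and did not overlap.

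Msmo1, the methyl sterol oxidase, separated in EV tumours at 199 to 267 against 81.2 to 182 CPM, and had log2 differences from media of 0.37 ± 0.23 and 0.34 ± 0.23. Sc5d, the sterol desaturase, had 0.21 ± 0.20 and 0.33 ± 0.20, and Ebp, the sterol isomerase, 0.72 ± 0.32 and 0.53 ± 0.32. Hsd17b7, the ketoreductase, had the smallest difference of the 18 with cabozantinib, 0.14 ± 0.43. Per kilobase of exon, mean levels over all libraries were highest for Fdps (51.2 CPM per kb) among the sterol enzymes, followed by Fdft1 (31.4) and Acat2 (29.9), and lowest for Tm7sf2 (0.747) and Dhcr7 (2.26).

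**Figure D2:**
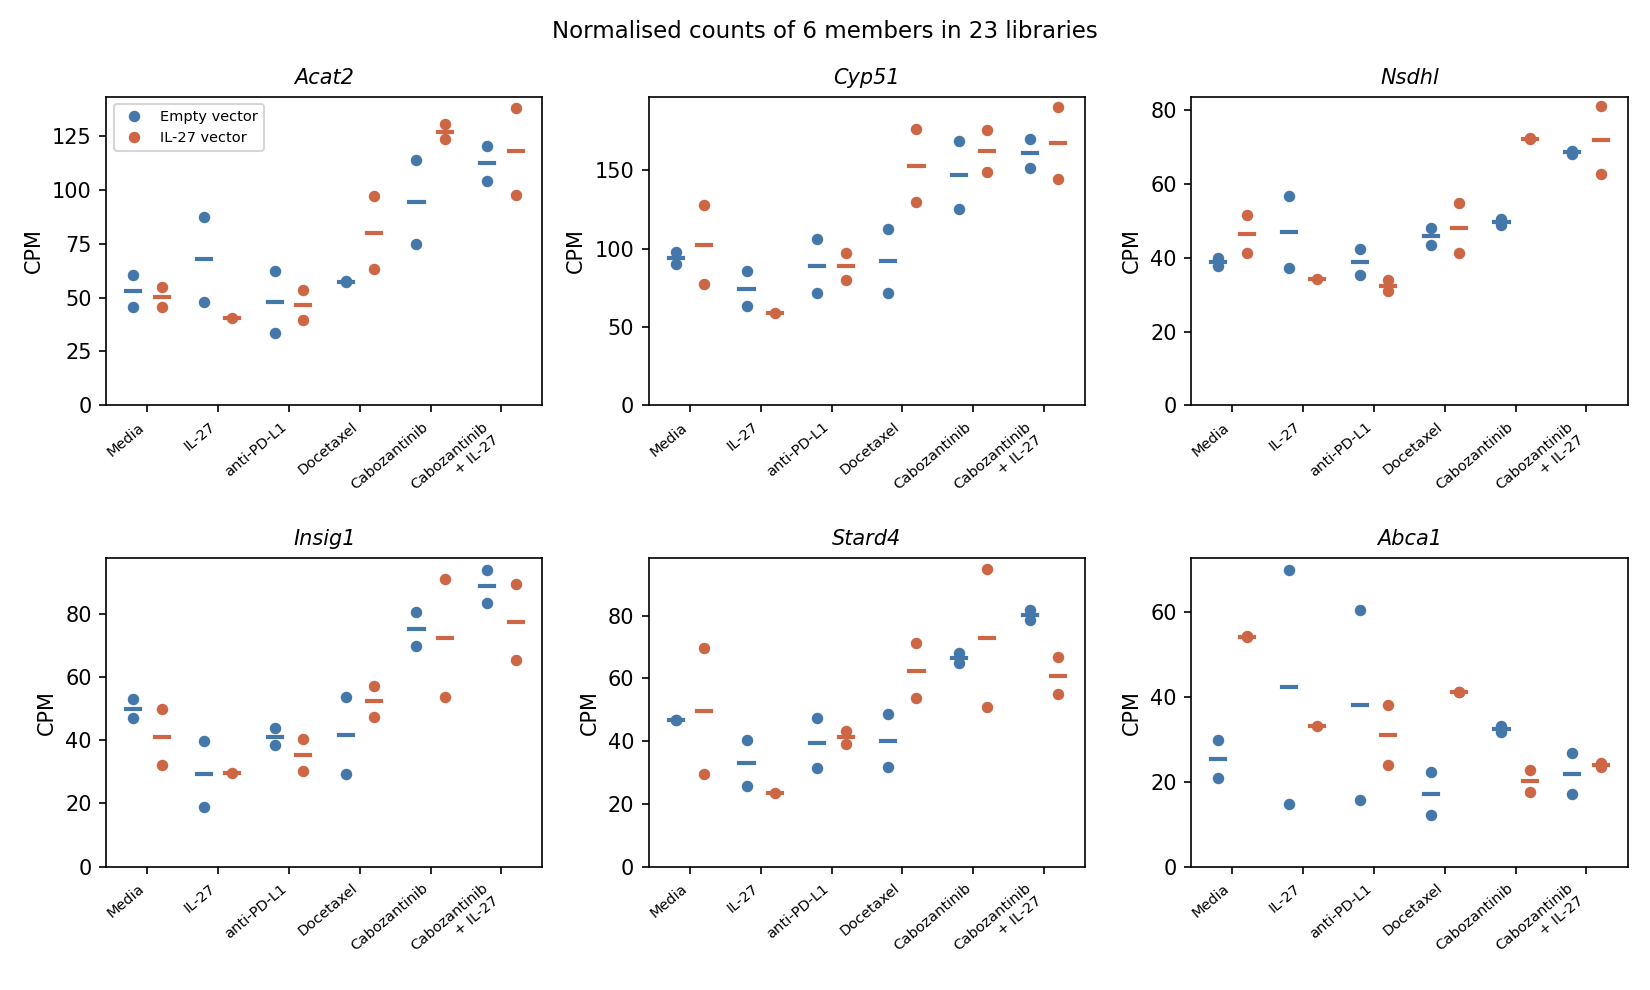
CPM of Acat2, Cyp51, Nsdhl, Insig1, Stard4 and Abca1 in each library by ex vivo condition (EV in blue, IL27v in orange, bar at the group mean, y axes from 0). Acat2 is at 97.6 to 138 CPM in the 4 cabozantinib-containing IL27v libraries and at 39.7 to 96.8 CPM in the 7 others, while Abca1 shows overlapping groups.

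The genes that control SREBP did not move as a block. Insig1, the retention partner that SREBP itself induces and a sensitive reporter of its activity, followed the sterol enzymes, and Srebf1 and Srebf2 were lowest in the 2 IL27v media libraries. In EV tumours, Insig1 was at 47.1 and 53.0 CPM in media, 69.7 and 80.6 with cabozantinib, 94.1 and 83.5 with cabozantinib plus IL-27, 53.8 and 29.4 with docetaxel, 44.0 and 38.4 with anti-PD-L1 and 18.8 and 39.7 with IL-27. In IL27v tumours, Insig1 was at 50.1 and 32.4 CPM in media, 91.1 and 53.8 with cabozantinib, 89.4 and 65.6 with cabozantinib plus IL-27, 57.3 and 47.4 with docetaxel, 30.3 and 40.4 with anti-PD-L1 and 29.6 with IL-27. The 4 cabozantinib-containing EV libraries were above the 8 others. In IL27v tumours the only other library above any of the 4 was docetaxel 1, at 57.3 CPM, and media 1 and docetaxel 2 came close below. The log2 difference from media was 0.70 ± 0.27 with cabozantinib and 0.87 ± 0.27 with cabozantinib plus IL-27, and the edgeR adjusted p were 0.43 and 0.88. Without docetaxel 1, the library rich in ribosomal RNA, 3 members did not overlap in IL27v tumours (Acat2, Nsdhl and Insig1, with a background of 1.67%). Insig1 was then the 1 member whose cabozantinib-containing libraries did not overlap the others in either vector, where 0.0286% of all genes did so. Leaving out docetaxel 1 removed the only overlap of Insig1, so this outcome follows from that choice. With docetaxel 1 kept, 0 members separated in both vectors (background 0.0245%). Insig2, the constitutive partner, had log2 differences of -0.45 ± 0.38 and -0.26 ± 0.38.

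Srebf1 encodes SREBP1, the isoform most tied to fatty acid synthesis. In EV tumours, Srebf1 was at 38.5 and 61.7 CPM in media, 49.2 and 36.9 with cabozantinib, 26.7 and 16.3 with cabozantinib plus IL-27, 67.5 and 100.4 with docetaxel, 56.7 and 20.5 with anti-PD-L1 and 73.4 and 53.3 with IL-27. In IL27v tumours, Srebf1 was at 6.49 and 15.7 CPM in media, 79.7 and 105 with cabozantinib, 88.4 and 92.2 with cabozantinib plus IL-27, 90.0 and 88.0 with docetaxel, 66.7 and 83.2 with anti-PD-L1 and 80.4 with IL-27. The 2 IL27v media libraries were the lowest of all 23, and all 9 treated IL27v libraries were above them. In EV tumours the 2 libraries with cabozantinib plus IL-27 and anti-PD-L1 2, the 3 EV libraries of set B, were the lowest. Srebf1 rose with cabozantinib in IL27v tumours, by 3.05 ± 0.49 on the log2 scale (edgeR adjusted p 0.017), and with cabozantinib plus IL-27 by 3.02 ± 0.49 (adjusted p 0.032). In EV tumours the differences were -0.22 ± 0.46 and -1.22 ± 0.46.

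Srebf2 encodes SREBP2, the main activator of sterol synthesis. In EV tumours, Srebf2 was at 161 and 187 CPM in media, 148 and 150.4 with cabozantinib, 157 and 119 with cabozantinib plus IL-27, 229 and 216 with docetaxel, 209 and 79.8 with anti-PD-L1 and 209 and 148 with IL-27. In IL27v tumours, Srebf2 was at 64.6 and 77.5 CPM in media, 272 and 234 with cabozantinib, 286 and 249 with cabozantinib plus IL-27, 279 and 274 with docetaxel, 190.3 and 212 with anti-PD-L1 and 190.0 with IL-27. The 4 lowest of all 23 libraries were in set B: both IL27v media libraries, EV anti-PD-L1 2 and EV cabozantinib plus IL-27 2. It rose in IL27v tumours by 1.83 ± 0.35 with cabozantinib (edgeR adjusted p 0.021) and by 1.91 ± 0.35 with cabozantinib plus IL-27 (adjusted p 0.032), and had -0.22 ± 0.34 and -0.33 ± 0.34 in EV tumours. Scap, the escort protein, had 1.27 ± 0.40 and 1.43 ± 0.40 in IL27v tumours and -0.27 ± 0.40 and -0.00085 ± 0.40 in EV tumours, none called. The difference between the vectors in the effect of cabozantinib was tested as an interaction: no member was called by edgeR (background 0.0205%), with 7 of 33 at an unadjusted p under 0.05 in the positive direction (background 6.05%). DESeq2 called Srebf1, Srebf2 and Fasn there (background 2.04%).

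Of the uptake and transport genes, Stard4, which carries sterols between membranes and is an SREBP2 target, followed the sterol enzymes. In EV tumours, Stard4 was at 46.7 and 46.8 CPM in media, 68.0 and 64.8 with cabozantinib, 81.8 and 78.6 with cabozantinib plus IL-27, 48.8 and 31.6 with docetaxel, 47.3 and 31.5 with anti-PD-L1 and 25.6 and 40.2 with IL-27. In IL27v tumours, Stard4 was at 69.6 and 29.5 CPM in media, 94.9 and 50.7 with cabozantinib, 66.9 and 54.9 with cabozantinib plus IL-27, 53.8 and 71.2 with docetaxel, 39.2 and 43.4 with anti-PD-L1 and 23.6 with IL-27. In EV tumours the 4 cabozantinib-containing libraries were above the 8 others, and in IL27v tumours cabozantinib 2 lay within the range of the others. Stard4 had log2 differences from media of 0.53 ± 0.28 and 0.54 ± 0.28, not called. Npc1, the lysosomal membrane protein that lets cholesterol out of lysosomes, had differences of the other sign, at -0.44 ± 0.23 and -0.55 ± 0.23, and was the only member lower at an unadjusted p under 0.05 with cabozantinib plus IL-27. Its partner Npc2 had 0.36 ± 0.34 and 0.30 ± 0.34. Npc1 was at 44.3 to 102 CPM in the 8 cabozantinib-containing libraries and 61.2 to 105 CPM in the others, so that the ranges overlapped.

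Of the 4 fatty acid synthesis genes, Fasn, fatty acid synthase, was lowest in the IL27v media libraries and was the only one at an unadjusted p under 0.05 for the vector interaction of cabozantinib, at 2.43 ± 0.54 (edgeR adjusted p 0.084). The interactions of the others were -0.07 ± 0.40 for Acaca, -0.21 ± 0.54 for Scd1 and 0.18 ± 0.54 for Scd2. In EV tumours, Fasn was at 253 and 335 CPM in media, 204 and 225 with cabozantinib, 181 and 139.7 with cabozantinib plus IL-27, 308 and 295 with docetaxel, 362 and 179 with anti-PD-L1 and 269 and 359 with IL-27. In IL27v tumours, Fasn was at 60.1 and 138 CPM in media, 454 and 326 with cabozantinib, 469 and 398 with cabozantinib plus IL-27, 571 and 423 with docetaxel, 427 and 486 with anti-PD-L1 and 313 with IL-27. All treated IL27v libraries were above both IL27v media libraries, as for Srebf1. Fasn rose in IL27v tumours by 1.97 ± 0.39 with cabozantinib (edgeR adjusted p 0.022) and by 2.13 ± 0.39 with cabozantinib plus IL-27 (adjusted p 0.032), and in EV tumours had -0.45 ± 0.38 and -0.87 ± 0.38. Acaca, acetyl-CoA carboxylase, had -0.39 ± 0.20 and -0.09 ± 0.20 averaged over vectors. The stearoyl-CoA desaturases had -0.07 ± 0.27 and 0.36 ± 0.27 (Scd1) and 0.21 ± 0.27 and 0.19 ± 0.27 (Scd2), whose sequences are close copies, so that reads may be shared. Scd2 was the most abundant member per length, at 139 CPM per kb, against 38.1 for Scd1 and 28.5 for Fasn. Fat cells express these genes too: the summed level of 7 adipocyte markers was 15.6 to 98.4 CPM in the 4 cabozantinib libraries, 15.8 to 70.9 in the 4 with cabozantinib plus IL-27 and 7.99 to 56.1 in media. Of the 7, Adipoq, Plin1, Cidec, Lep and Retn were at 0 in 2 to 14 libraries, and none of the 7 was called; their part in the result was not tested.

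The 3 LXR-driven genes had lower levels than media in the averages over vectors, none called by edgeR, but with cabozantinib alone their differences had opposite signs in the 2 vectors. Their log2 differences from media were 0.35 to 0.41 in EV tumours, all 3 positive, and -1.45 to -0.72 in IL27v tumours, all 3 negative. None of the 3 had an unadjusted p under 0.05 for the interaction in the main edgeR fit or with the GC offset. In the negative direction, at least 1 did with DESeq2, with RLE scaling in edgeR and in edgeR with no filter on low counts. The share of all genes that did so is not given, so this is not read as a result about these genes. With the library set as an added term and without the library rich in ribosomal RNA, a model chosen after seeing the data, the average over vectors with cabozantinib had a median of 0.11, with 2 of 3 positive. Abca1, the cholesterol efflux pump to apolipoprotein A-I, shows the spread. In EV tumours, Abca1 was at 21.0 and 29.9 CPM in media, 31.7 and 33.1 with cabozantinib, 17.0 and 26.8 with cabozantinib plus IL-27, 22.2 and 12.1 with docetaxel, 15.6 and 60.4 with anti-PD-L1 and 14.8 and 69.8 with IL-27. In IL27v tumours, Abca1 was at 54.3 and 53.9 CPM in media, 22.7 and 17.6 with cabozantinib, 23.5 and 24.4 with cabozantinib plus IL-27, 41.1 and 41.1 with docetaxel, 23.9 and 38.1 with anti-PD-L1 and 33.1 with IL-27. The IL27v media libraries were above all 4 cabozantinib-containing IL27v libraries, while in EV tumours both cabozantinib libraries were above both media libraries, and the highest levels were in anti-PD-L1 2 and IL-27 2. Log2 differences from media averaged over vectors were -0.54 ± 0.42 and -0.70 ± 0.42 for Abca1, -0.55 ± 0.62 and -0.36 ± 0.62 for Abcg1, and -0.16 ± 0.46 and -0.60 ± 0.47 for Mylip, which degrades the receptors that take up cholesterol. Abcg1 was at 1.59 to 28.3 CPM and Mylip at 1.54 to 8.32 CPM over all libraries, with the highest level of both in IL27v media 2. Macrophages express Abca1 and Abcg1 strongly, and the sum of 8 macrophage markers was 129 and 134 CPM in EV media, 270.4 and 175 with cabozantinib, 94.3 and 182 with cabozantinib plus IL-27, 129 and 207 with docetaxel, 114 and 258 with anti-PD-L1 and 355 and 339.6 with IL-27 there. In IL27v tumours it was 153 and 287 CPM in media, 132 and 473 with cabozantinib and 175 and 172 with cabozantinib plus IL-27, and 155 to 218 with the other agents. Both EV cabozantinib libraries, EV anti-PD-L1 2 and EV IL-27 2 were above both EV media libraries in these markers and in Abca1. EV IL-27 1 and EV docetaxel 2 were above both EV media libraries in the markers and below both in Abca1. EV cabozantinib plus IL-27 2 was above both in the markers and between them in Abca1. IL27v cabozantinib 2 had the highest marker sum of all 23 libraries and the lowest Abca1 of the IL27v libraries. Of the 8 macrophage markers, Cd163 was at 0 in 2 libraries. None of the 8 was called with cabozantinib, and their part in the result was not tested.

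Within a vector, cabozantinib against media called 0 of 33 members in EV tumours in edgeR (background 0%), where 1 was higher at an unadjusted p under 0.05 (1.1%), and 0 in DESeq2 (0.0327%). In IL27v tumours it called 4 higher and 0 lower (Mvk, Srebf1, Srebf2 and Fasn), where 1.87% of all genes were called higher. At an unadjusted p under 0.05, 14 members were higher in IL27v tumours, where 9.5% of all genes were, and 1 was lower (Abca1; background 3.83%). With cabozantinib plus IL-27, 14 were higher (background 7.93%) and 1 lower (Npc1; 1.96%). With no filter on low counts, edgeR also called Abca1 lower with cabozantinib in IL27v tumours, where it called 1.14% of all genes lower. Cabozantinib plus IL-27 called 3 in IL27v tumours (Srebf1, Srebf2 and Fasn; background 0.896%) and 0 in EV tumours (0.00409%). There 6 members were higher and 2 lower at an unadjusted p under 0.05 (background 1.98% and 1.93%), and DESeq2 called 0 (0.307%). The calls in IL27v tumours rested on few libraries. With cabozantinib none remained without IL27v media 1 or without IL27v cabozantinib 2. With cabozantinib plus IL-27 none remained without IL27v media 1, docetaxel 1, anti-PD-L1 1, anti-PD-L1 2 or either of its own 2 libraries. Calls became more numerous with cabozantinib without EV IL-27 1, and with cabozantinib plus IL-27 without IL27v media 2. The share of all genes called in these fits was not examined. Adding ex vivo IL-27 to cabozantinib gave no difference that passed the test in any member. The log2 difference of cabozantinib plus IL-27 from cabozantinib alone had a median of 0.06 over the sterol genes (range -0.48 to 0.39), and 0 members were called by edgeR (background 0.00409%) or DESeq2 (0.0532%). None had an unadjusted p under 0.05, where 3.35% of all genes did. The 95% interval for Acat2 was -0.47 to 0.61, and for Insig1 -0.40 to 0.74.

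The size of the IL27v difference moved with base composition. Over all genes tested, the median log2 difference of cabozantinib from media in IL27v tumours went from -0.69 in the decile of genes with the lowest exon GC (median 39.4%) to 1.50 in the decile with the highest (59.1%). Srebf1, Srebf2, Mvk and Fasn have 59.4%, 57.1%, 58.5% and 58.3% GC, near the top of the members' range of 41.1 to 59.4%. With the GC trend of each library entered as an offset, Srebf1 was still called, at 1.79 ± 0.31 (edgeR adjusted p 0.039), and the others were not: Srebf2 0.92 ± 0.31 (adjusted p 0.33), Mvk 2.38 ± 0.49 (0.059) and Fasn 0.95 ± 0.39 (0.52). The median over the sterol enzymes was 1.06 with the offset and 0.68 without it. With the offset, 21 of 33 members were higher at an unadjusted p under 0.05 in this comparison, where 5.81% of all genes were, and Insig1 had 1.18 ± 0.32 against 0.81 ± 0.39 without it. In the averages over both vectors the offset gave 19 members higher with cabozantinib (background 5.52%) and 21 with cabozantinib plus IL-27 (2.96%), where 1 was lower (Npc1; 1.42%), still 0 called after adjustment.

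**Figure D3:**
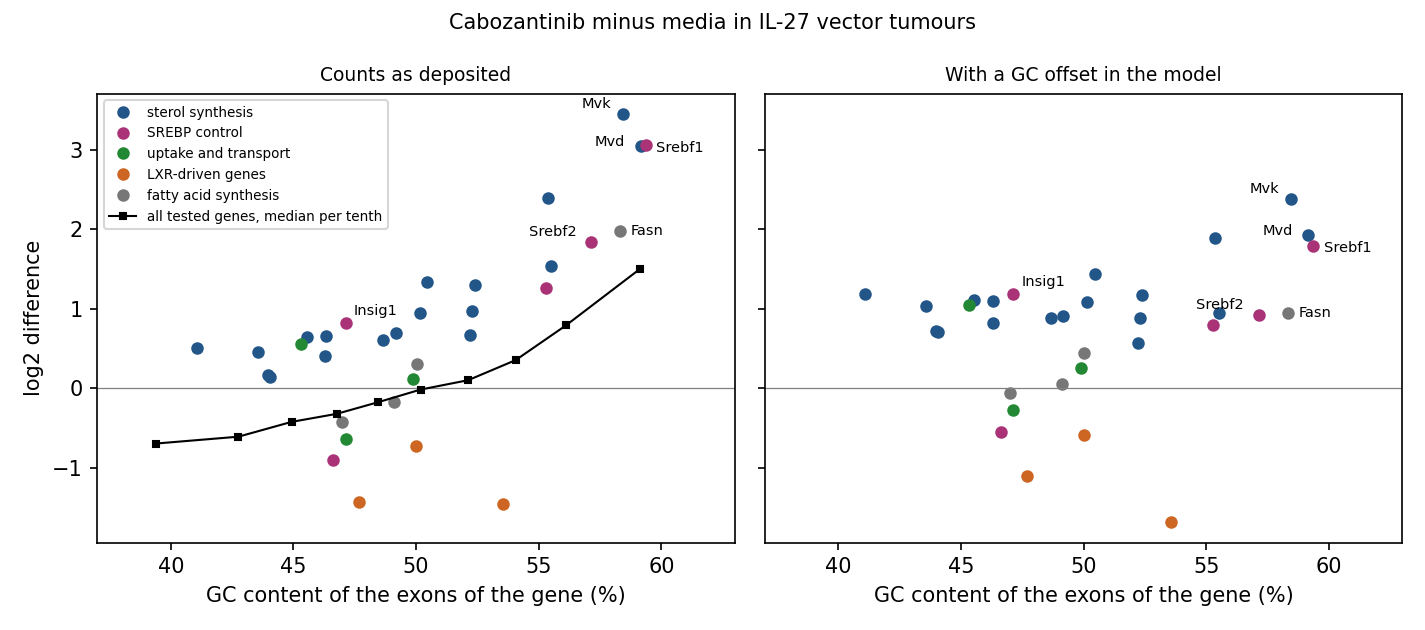
Log2 difference of cabozantinib from media in IL27v tumours against exon GC percent for the 33 members, as deposited with the medians of all genes by decile of GC, and with the GC offset. The medians of all genes rise from -0.69 to 1.50 as deposited, and Srebf1, Mvk and Mvd, at the GC-rich end, come down with the offset while Insig1 does not.

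The sterol difference from media also depended on how the library sets were treated. With the set as a term in the model, the median over the 18 sterol genes was 0.16 with cabozantinib and 0.55 with cabozantinib plus IL-27 averaged over vectors, and -0.11 and -0.11 in IL27v tumours, with no member called. In that model the difference between sets A and C rests on IL27v docetaxel 1, the library rich in ribosomal RNA. Without that library and with set and treatment as additive terms, a model chosen after seeing the data, the medians were 0.59 and 0.74, and again no member was called. In EV tumours the cabozantinib and media libraries are all in set A, while those with cabozantinib plus IL-27 are in set B. A fit of the EV libraries of set A alone gave a sterol median of 0.53 for cabozantinib against media. No member was called there or had an unadjusted p under 0.05.

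The IL27v media libraries stand apart from the other IL27v libraries in set and GC trend. The cabozantinib-containing groups were therefore also compared with docetaxel, anti-PD-L1 and IL-27, the other treated groups of the same vector. This leaves the media libraries out of the difference. Sets still differ in EV tumours, where both libraries with cabozantinib plus IL-27 and anti-PD-L1 2 are in set B and the others in set A. In EV tumours 16 of 18 sterol genes were higher with a median log2 difference of 0.45, and in IL27v tumours 18 of 18 with a median of 0.79. The LXR-driven genes had medians of -0.18 and -0.66. edgeR called no member in either (background 0.00409% and 0.00818%). At an unadjusted p under 0.05, 13 members were higher and 2 lower (Srebf1 and Fasn) in EV tumours, where 3.78% of all genes were higher and 4.75% lower, and 15 were higher and 0 lower in IL27v tumours, where 2.82% were. DESeq2 called 5 in EV tumours (Acat2, Idi1, Cyp51, Insig1 and Stard4, with a background of 0.52%) and 4 in IL27v tumours (Acat2, Lss, Tm7sf2 and Nsdhl, with 0.164%). Acat2 had a log2 difference of 0.85 ± 0.23 in EV and 1.20 ± 0.25 in IL27v tumours. Insig1 had 1.15 ± 0.24 and 0.98 ± 0.27, and Cyp51 0.86 ± 0.21 and 0.83 ± 0.22. For Nsdhl the larger value was in IL27v tumours, at 0.94 ± 0.19 against 0.42 ± 0.17 in EV tumours, a difference between vectors that was not tested. Srebf1 had -0.96 ± 0.30 in EV tumours and 0.17 ± 0.31 in IL27v tumours, and Fasn -0.67 ± 0.25 and -0.01 ± 0.26, so that the large media-based differences of these genes in IL27v tumours were not seen against the other agents. Within set C alone, which removes the media and the ribosomal RNA-rich library, 18 members were higher at an unadjusted p under 0.05 in IL27v tumours (background 4.43%), with 18 of 18 sterol genes positive, and 1 was lower, Abca1 at -0.66 ± 0.20 (background 3.07%). With the GC offset, 13 members were higher in EV tumours (background 3.42%) and 1 lower (Srebf1; 3%), and 17 were higher in IL27v tumours (3.36%), with sterol medians of 0.43 and 0.73.

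**Figure D4:**
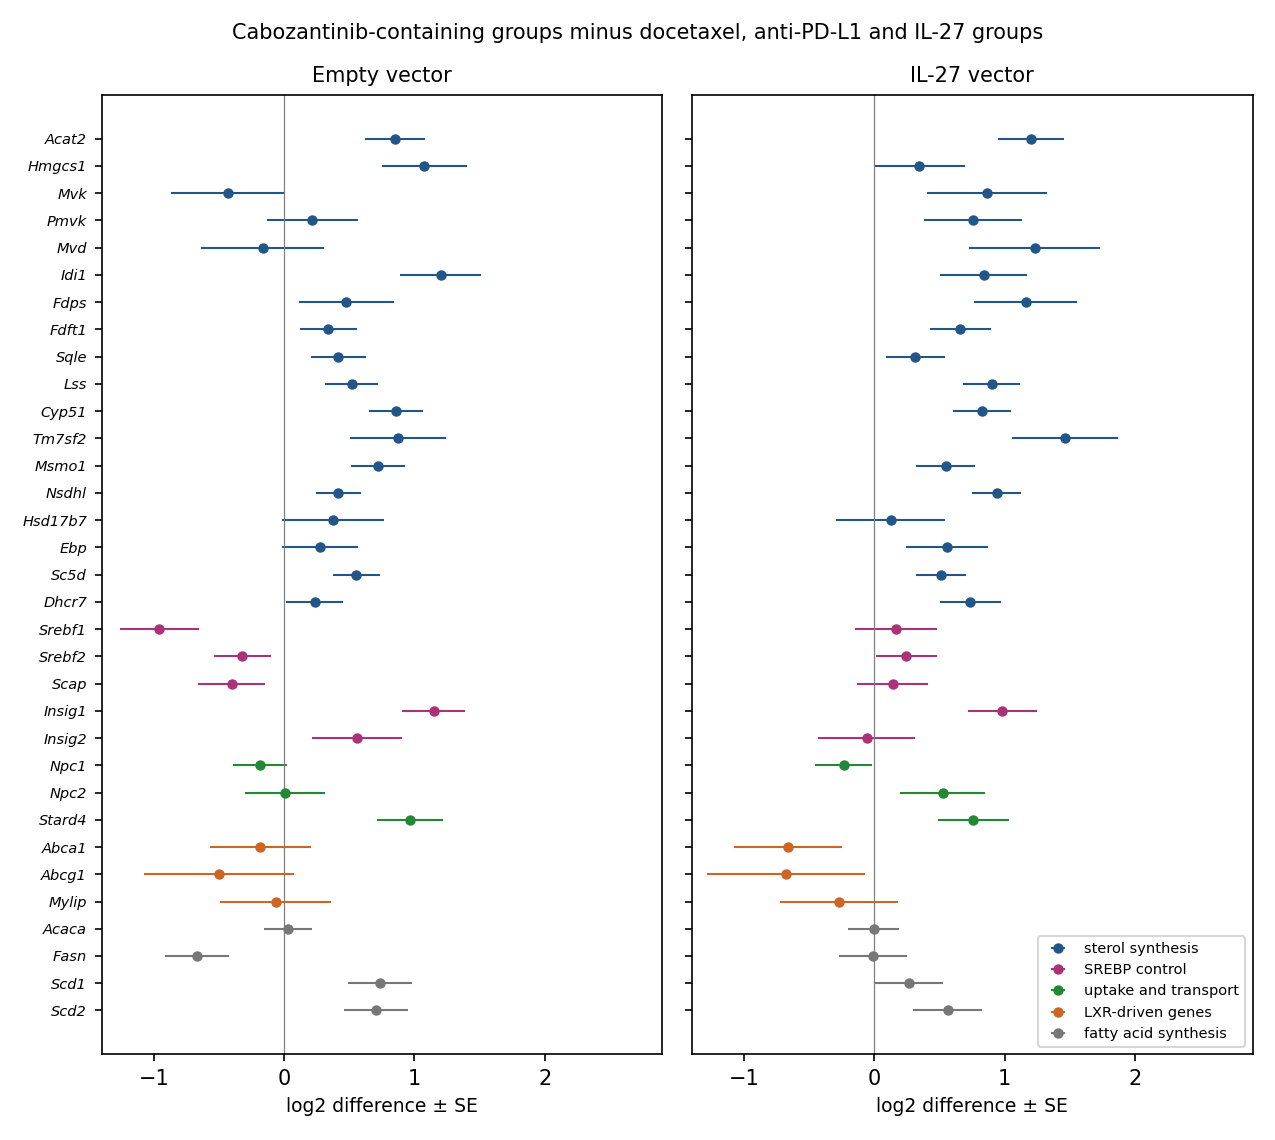
Log2 difference ± SE of the cabozantinib-containing groups from the docetaxel, anti-PD-L1 and IL-27 groups for each of the 33 members by role, in EV and IL27v tumours. Acat2, Cyp51, Nsdhl and Insig1 are above 0 in both vectors, and Srebf1 is below 0 in EV tumours only.

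Ranked by group mean within a vector, both cabozantinib-containing groups were the top 2 of 6 conditions for 15 of 33 members in EV tumours (background 8.48%), for 15 in IL27v tumours (8.65%) and for 9 in both vectors (0.908%). The 9 were Acat2, Fdft1, Lss, Cyp51, Tm7sf2, Nsdhl, Sc5d, Insig1 and Scd2, that is 7 sterol enzymes, 1 gene of SREBP control and 1 desaturase, and no LXR-driven gene. Neighbouring groups in these orders usually overlapped: all 4 cabozantinib-containing libraries were above every other library for 7 members in EV tumours (Hmgcs1, Idi1, Cyp51, Tm7sf2, Msmo1, Insig1 and Stard4; background 0.589%), for 2 in IL27v tumours (Acat2 and Nsdhl; 1.45%) and for none in both (0.0245%). No member had all 4 below the others in either vector, where 0.356% of all genes did in EV tumours and 1.04% in IL27v tumours. Base composition also varied with the EV difference. Over all genes, the median log2 difference from the other agents there went from 0.23 in the lowest GC decile to -0.50 in the highest. Of the 7 members that separated in EV tumours, Tm7sf2 has 55.4% GC and the others 41.1 to 47.1%. Separation of libraries was not examined with the GC offset.

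Docetaxel was the other agent with called members. Averaged over vectors, Mvk (2.21 ± 0.50, edgeR adjusted p 0.033), Srebf1 (1.87 ± 0.33, 0.013), Srebf2 (1.16 ± 0.24, 0.024) and Fasn (1.18 ± 0.27, 0.035) rose, 4 of 33 where 1.76% of all genes were called higher. The sterol genes had a median log2 difference of 0.40, and 9 of 33 members were higher at an unadjusted p under 0.05, where 10.5% of all genes were. The 4 called genes are those called with cabozantinib in IL27v tumours, and each was lower in both IL27v media libraries than in any treated IL27v library. With the GC offset Srebf1 alone was still called, where 131 of 24440 genes were called higher. All 18 sterol genes were then positive, with a median of 0.55 against 0.01 over all genes tested. In the main fit no call remained without any 1 of EV media 1, EV media 2, EV docetaxel 2, IL27v media 1 or IL27v docetaxel 1. Insig1, by contrast, had 0.04 ± 0.27 and Cyp51 0.27 ± 0.23 in the main fit. The 2 IL27v docetaxel libraries also held 2199 and 2252 CPM of 7 sebaceous and keratinocyte markers and anti-PD-L1 1 held 523, against 2.07 to 19.8 CPM in the others, including both EV docetaxel libraries. The keratins Krt5, Krt14 and Krt6a reached 410, 960 and 1009 CPM and were at 0 in 7 to 10 libraries. The sebaceous markers of the list, Elovl3, Awat2 and Mc5r, were at most 4.11, 2.10 and 0.119 CPM in any library. The part of these markers in the result was not tested.

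Anti-PD-L1 called 0 members in edgeR (background 0%) and 1 (Fasn) in DESeq2 (0.344%), with a sterol median of -0.12 and 4 members higher at an unadjusted p under 0.05 (background 4.29%). Ex vivo IL-27 alone called 0 in edgeR (background 0%) and 1 (Srebf1) in DESeq2 (2.06%), with a sterol median of -0.04, 6 members higher and 7 lower at an unadjusted p under 0.05 (background 8.68% and 3.22%). Among the lower members were Cyp51 (-0.56 ± 0.26), Idi1 (-1.01 ± 0.40), Stard4 (-0.79 ± 0.32) and Scd2 (-0.88 ± 0.31), and among the higher ones Srebf1 (1.60 ± 0.36) and Mvd (1.28 ± 0.56). Over all genes tested, the median log2 difference of ex vivo IL-27 from media went from -0.63 in the lowest GC decile to 0.88 in the highest. Cyp51, Idi1 and Stard4 have 46.3%, 41.1% and 45.3% GC, Scd2 50.0%, and Srebf1 and Mvd 59.4% and 59.2%. With the GC offset, fewer members had an unadjusted p under 0.05 in both directions. The part of base composition was not tested. The IL27v arm of that comparison is a single library, and EV IL-27 1, with Fdps at 543 CPM and Insig1 at 18.8, stood apart from EV IL-27 2, at 111 and 39.7.

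Averaged over the 6 ex vivo conditions, the IL-27 vector called 0 members in edgeR, where 2.95% of all genes were called, and 4 of 33 were higher at an unadjusted p under 0.05 (background 8.82%), these being Sc5d, Scap, Abcg1 and Fasn. DESeq2 called Sc5d, Scap and Abcg1 (background 5.19%). Abcg1 had a log2 difference of 1.38 ± 0.37 (edgeR adjusted p 0.055) and Scap 0.59 ± 0.17 (adjusted p 0.067), and the sterol genes had a median of 0.04. The vector groups differ in library sets too, and set and vector cannot be fully told apart.

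A further list of 33 genes of the same pathways, not members, was fixed in 5 groups: sterol and isoprenoid, SREBP processing, fatty acid and lipid, uptake and storage, and LXR. In the averages over both vectors edgeR called 0 of them with cabozantinib and 0 with cabozantinib plus IL-27, where it called 0% and 0.00409% of all genes. At an unadjusted p under 0.05, 7 were higher and 2 lower with cabozantinib (background 7.69% and 2.82%), and 5 higher and 0 lower with cabozantinib plus IL-27 (3.05% and 1.42%). Their median log2 differences were -0.0048 and 0.17. The smallest p with cabozantinib plus IL-27 were in the fatty acid and lipid group: Fads2, the first desaturase of polyunsaturated fatty acids and an SREBP1 target, had 0.74 ± 0.23 with cabozantinib and 1.17 ± 0.23 with cabozantinib plus IL-27, and Fads1, the next desaturase, 0.42 ± 0.19 and 0.81 ± 0.19. Lpin1, a phosphatidate phosphatase, had 0.65 ± 0.23 and 0.80 ± 0.23. In IL27v tumours edgeR called 3 of the 33 higher and 0 lower with cabozantinib (Mid1ip1, Aacs and Nr1h2; background 1.87% higher) and 2 higher and 0 lower with cabozantinib plus IL-27 (Mid1ip1 and Aacs; 0.896%). Mid1ip1, which promotes acetyl-CoA carboxylase assembly, rose in IL27v tumours by 2.40 ± 0.52 with cabozantinib (edgeR adjusted p 0.028) and 2.30 ± 0.51 with cabozantinib plus IL-27 (0.048). Aacs, which makes acetoacetyl-CoA from ketone bodies, rose by 2.03 ± 0.43 (edgeR adjusted p 0.027) and 1.89 ± 0.42 (0.048). Nr1h2, the LXRβ gene, rose there with cabozantinib by 3.25 ± 0.70 (edgeR adjusted p 0.028). Against the other agents, Fads2 had 0.57 ± 0.21 in EV tumours and 1.06 ± 0.22 in IL27v tumours, while Aacs had -0.47 ± 0.27 and 0.18 ± 0.28, and Nr1h2 -1.49 ± 0.43 and 0.29 ± 0.44.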

How the data were processed

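Counts for 23 poly(A) libraries were deposited as 1 table of whole numbers per Ensembl gene. The authors' processing notes name cutadapt, HISAT2, StringTie, DESeq2 and the build GRCm38, with no versions, per the submitters' processing notes; neither the counting step nor its strand setting was given in the sources used here. The deposited values were treated as estimated counts, since 143 genes held the same nonzero value in every library and 31.7 to 35.3% of values from 1 to 40 were multiples of 4. How they were made can affect low counts most.

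Genes were filtered by filterByExpr, scaled by TMM and tested with edgeR 4.0.16 in R 4.3.3 (quasi-likelihood test, 1 model of 12 group means, Benjamini-Hochberg adjustment over 24440 genes, called at adjusted p under 0.05). All groups share 1 estimate of spread. Errors after ± are SE. An exon GC percent was found for 99.8% of tested genes, and the GC offset used a smoother of span 0.3. Sets B and C were set by 5 CPM of Ngp and 100 CPM of summed muscle markers without Tpm2 and Eno3. Alternatives were DESeq2 1.42.0, other scaling, filters, designs, a replicate block and leaving out each library. The scripts were tested on simulated counts.

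Values per library are given for the members of each role with the smallest p in the averaged cabozantinib comparisons, and for others where said. The members and lists were chosen with earlier results of these data known. Some items are not reported here.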

Additional observations from a re-analysis of the deposited data

How the results depend on the processing

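The counts of called members, out of 33, depended on the method. DESeq2 in place of edgeR called 5 with cabozantinib averaged over vectors and 2 with cabozantinib plus IL-27. For the same comparisons in IL27v tumours it called 10 and 9. There it called 1349 and 1002 of 24440 genes higher, and 223 and 100 lower. Against the other agents it called 5 in EV and 4 in IL27v tumours. It called 1 with anti-PD-L1, 1 with IL-27, 3 for the vector and 3 for the interaction, with shares of all genes given above. With no filter on low counts the same series was 7, 4, 11, 6, 7, 4, 2, 4, 2 and 5. Of 33123 genes, that setting called 719, 240, 1275, 970, 214, 136, 375, 907, 1220 and 632 higher in the same order. It called 229, 113, 379, 166, 387, 204, 131, 186, 411 and 197 lower. The GC offset gave 1 with cabozantinib and 1 with cabozantinib plus IL-27 in IL27v tumours, 1 with docetaxel and 2 for the vector. Of 24440 genes it called 40, 17, 131 and 635 higher and 1, 0, 4 and 255 lower. With the replicate block added it gave 0, 0, 0 and 3 members. Fitting only the compared groups and media gave 0, 0 and 1 for the first 3 of these. The library sets as a term gave 0, 0 and 0, and the additive model without the library rich in ribosomal RNA, added after seeing the data, gave 0 with docetaxel. Leaving out that library alone gave 0 with cabozantinib plus IL-27 in IL27v tumours and 0 with docetaxel. The cause of these changes was not tested.

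Replicate numbers did not pair the samples: over 55 pairs of groups the correlation of same-numbered deviations ran from -0.34 to 0.30, above 0.1 in 9 and below -0.1 in 8. The replicate block gave 0 called members with cabozantinib plus IL-27 in IL27v tumours, 1 for the vector and 3 in place of 4 with docetaxel, where Fasn had an edgeR adjusted p of 0.056.

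Leaving out 1 library at a time changed the number of called members with cabozantinib averaged over vectors and in IL27v tumours. It also changed with cabozantinib plus IL-27 in IL27v tumours, with docetaxel, anti-PD-L1 and ex vivo IL-27, for the vector and for the interaction. The other comparisons did not change. Most of these fits leave 1 library in a group, and the share of all genes called in them was not examined, so no counts are given.

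Single genes changed sign as follows. With library sets as a term, the cabozantinib average was -0.046 for Lss, -0.20 for Idi1, -0.0062 for Hmgcs1 and -0.081 for Dhcr7. Against the other agents in EV tumours, Mvk (-0.43) was 0.080 with the GC offset, 0.078 with the offset and replicate block and 0.21 with the set term. Mvd (-0.16) was 0.39, 0.38 and 0.31, and ran from -0.71 to 0.26 with 1 library left out, positive without EV cabozantinib 2, EV anti-PD-L1 1 or EV IL-27 1. Hmgcs1 against the other agents in IL27v tumours ran from -0.056 (without the IL27v IL-27 library) to 0.53 with 1 library left out, and Fasn with docetaxel was -0.045 in the additive set model. With 2 libraries a group, low members such as Tm7sf2 and Mylip are the least precisely measured.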
